A study of Drosophila melanogaster with 2 samples.

Results

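The CG31441-eGFP peak list of Drosophila melanogaster embryos held 732 summits that lay between genes but close to one. A summit, the position of highest signal in a peak, was counted here if it fell in no protein-coding transcript and lay more than 500 and at most 5000 bp from the nearest transcription start site (TSS) of a protein-coding gene. These were 732 of 6476 summits on the nuclear chromosome arms (11.3%, exact 95% interval 10.5 to 12.1), taken from the conservative list of the series. In the same list 25 peaks of 6501 lay outside these arms and were left out. Of the 732 summits, 74 lay within 500 bp of the start of a noncoding RNA gene and 63 lay inside such a gene, so "intergenic" means between protein-coding genes only.

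The data came from 1 group with 2 biological replicates. The group consisted of whole embryos aged 0 to 16 hours from transgenic flies that express CG31441 fused to eGFP, and the fusion protein was precipitated with an antibody against GFP after sonication to fragments of 200 to 800 bp (ChIP-seq). Flies without the transgene, control libraries and single cell types were not analysed here. Whole embryos pool every cell type over a long window of development, so strong occupancy in few cells and weak occupancy in many cannot be told apart.

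CG31441 is predicted to be a zinc-finger protein, a class in which many members bind DNA. Sequence between genes holds core promoters of noncoding RNAs, insulators and enhancers, the elements that set where and when a nearby gene is transcribed. In Drosophila, enhancers of developmental genes often lie upstream of the promoter or in introns, although the nearest gene need not be the one an element acts on.

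Sequences of the summit base and 50 bp on each side are shown for 5 of the 10 strongest summits found in both replicates, because the base composition at the summit recurs throughout the results. They are read 5′ to 3′ on the plus strand of assembly dm6 (RefSeq genome), and capitals mark the longest run made only of A and T.
CG4004, chrX:12751060-12751160: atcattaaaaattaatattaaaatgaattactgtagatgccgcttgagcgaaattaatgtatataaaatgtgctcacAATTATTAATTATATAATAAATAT
ph-d, chrX:2124060-2124160: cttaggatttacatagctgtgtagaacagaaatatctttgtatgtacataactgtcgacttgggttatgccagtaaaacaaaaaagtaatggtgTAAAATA
CG31668, chr2L:2202356-2202456: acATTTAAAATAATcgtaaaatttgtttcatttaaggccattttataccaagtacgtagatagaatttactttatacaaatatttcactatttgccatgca
CG43131, chr3R:5113223-5113323: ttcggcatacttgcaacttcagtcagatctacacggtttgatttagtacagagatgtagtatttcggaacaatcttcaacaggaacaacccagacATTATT
l(3)neo38, chr3R:11780262-11780362: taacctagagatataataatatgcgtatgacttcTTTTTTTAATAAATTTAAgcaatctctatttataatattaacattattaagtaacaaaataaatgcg
In these windows G and C made up 19.8% of the bases at CG4004 and at l(3)neo38, 24.8% at CG31668, 31.7% at ph-d and 38.6% at CG43131.

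The summits with the most G and C among the 20 strongest are shown as a contrast, this time with a known element in capitals. The window at slp2 holds GGTCACAC, the Motif 1 core of housekeeping promoters, at 2 places. The window at jp holds the letters AGNNGGCGC, a CTCF insulator core, on the minus strand.
slp2, chr2L:3832474-3832574: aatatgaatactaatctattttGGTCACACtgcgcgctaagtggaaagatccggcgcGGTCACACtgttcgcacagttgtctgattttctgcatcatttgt
jp, chr2L:9567454-9567554: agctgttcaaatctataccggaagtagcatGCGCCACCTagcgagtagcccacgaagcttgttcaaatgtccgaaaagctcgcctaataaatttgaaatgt
G and C made up 43.6% of the slp2 window and 44.6% of the jp window. Such matches are rare at these summits. The Motif 1 core was found at 3 of 732 summits (0.410%, 0.0846 to 1.19) and the CTCF core at 12 (1.64%, 0.850 to 2.85). All windows of the same length in the same intergenic class held them at 0.131% and 0.704%, and the Motif 1 interval holds the first of these.

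The 4 strongest summits of the class were at Psc, CG4004, ph-d and CG13321. The signal of a peak is the value from the authors' peak caller, on a scale that is not stated. Levels are therefore compared within a list, and values from several lists are only set side by side. The summit of highest signal, on 2R at 12985205, lay 4211 bp upstream of Psc, which encodes a subunit of Polycomb repressive complex 1. Its signal was 773 in the combined list, 407 in the list of replicate 1 and 348 in that of replicate 2. The other side of Psc held the fourth strongest summit, in the convergent gap between Psc and CG13321 at 12958239, with 656 in the combined list, 349 in replicate 1 and 315 in replicate 2. That summit lay closer to the TSS of CG13321, 4686 bp downstream of it. The third strongest, on X at 2124110, lay 824 bp upstream of ph-d in the gap of 2923 bp between ph-d and ph-p, neighbouring copies of the polyhomeotic gene of the same complex. It had 659 in the combined list, 395 in replicate 1 and 252 in replicate 2. Reads from the duplicated polyhomeotic genes could be shared between copies. The summit base is soft-masked at ph-d and also at Psc, where the window holds a run of 35 bases of only A and T. Psc and ph-d were the only 2 of 25 genes on the Polycomb and trithorax list nearest to a summit of the class (8%, 0.984 to 26.0). The interval holds the 3.96% of all protein-coding genes that were nearest to one.

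A summit with 581 lay 669 bp upstream of nej, the CBP histone acetyltransferase, in the divergent gap that nej shares with the head gap gene btd, and it had 300.3 in replicate 1 and 285 in replicate 2. A summit with 528 lay 1289 bp upstream of bin, a forkhead gene of the visceral mesoderm, with 346 in replicate 1 and 185 in replicate 2. The slp2 summit lay 4316 bp upstream of that forkhead segmentation gene, toward its neighbour slp1. Its signal was 523 in the combined list, 264 in replicate 1 and 267 in replicate 2. The foxo summit, 3350 bp upstream of this forkhead gene of insulin signalling, had 523, 296 and 229.6 in the same order.

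The nearest genes of the 20 strongest summits had mixed roles. The second strongest had 672 in the combined list, 395 in replicate 1 and 273 in replicate 2, and lay 4793 bp downstream of CG4004 in a convergent gap. The summits nearest CG31668 and CG43131 had 609 and 601. CycB encodes the mitotic cyclin B, and its summit had 636 in the combined list, 299.8 in replicate 1 and 310.0 in replicate 2. The DNAlig3 summit had 589.9 and lay in a convergent gap of 437 bp between Sol1 and Cyp9f2, so the gene of the nearest TSS did not border the gap. Over all 732 summits the nearest gene bordered the gap at 728. Apart from l(3)neo38, described with the noncoding RNA genes, the remaining nearest genes were CG33453, CG43245, by (tensin, an adaptor at integrin contacts), NimC3 (a Nimrod receptor), slbo (the C/EBP factor of border cells), jp (junctophilin) and hll, with combined signals from 604 down to 489. Of the 20 summits, 15 lay upstream of the nearest TSS, 10 lay in divergent gaps, 5 lay at a noncoding RNA gene start, and 14 had the higher signal in the list of replicate 1.

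**Figure D1:**
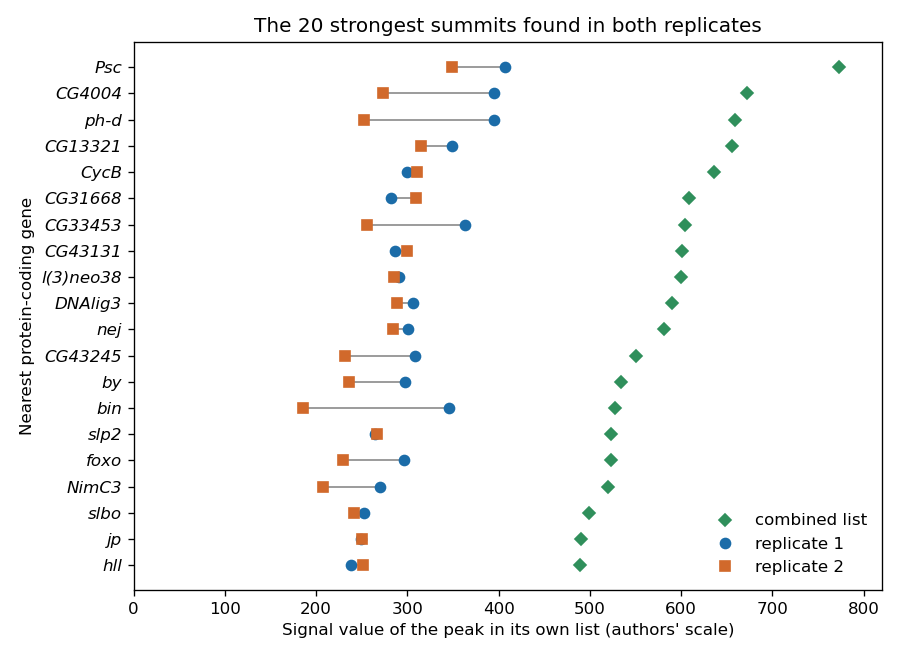
Signal of the peak at the 20 strongest intergenic summits near genes that were found in both replicates, by nearest protein-coding gene (rows), in the combined list (diamonds), the list of replicate 1 (circles) and the list of replicate 2 (squares), each on the scale of its own list. The grey line joins the replicates; it is longest at bin (346 and 185) and short at jp and slp2, and combined values run from 773 at Psc to 489 at hll.

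The class as a whole was of middling strength. Median signal was 172 over the 732 summits against 180.4 over all nuclear summits, with 89.6 at the 10th percentile, 349.9 at the 90th and a range of 6.36 to 773. In the replicate lists the medians were 120.3 of 517 such summits against 129.8 overall in replicate 1, and 84.0 of 579 against 88.1 in replicate 2. The class made up 10 of the 100 strongest nuclear summits (10%, 4.90 to 17.6), 33 of the 500 strongest (6.60%, 4.59 to 9.14) and 80 of the 1000 strongest (8%, 6.39 to 9.86). The last 2 shares lay below the 11.3% of the whole list, while the interval for the 100 strongest holds it. Within the replicate lists it was 10.4% and 10.6% of nuclear summits (mean 10.5% ± 0.113, SD, n = 2).

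As many summits of the class were found in both replicates as were not. The summit lay inside a thresholded peak of both replicates at 366 of 732 (50%, 46.3 to 53.7), against 54.6% of all nuclear summits. It lay in a peak of replicate 1 alone at 83, of replicate 2 alone at 124, and of neither at 159 (21.7%). The share in both replicates was 46.7% for intergenic summits over 5000 bp from a TSS, 49.6% for summits in transcripts over 5000 bp away, 57.2% for those in transcripts at more than 500 and at most 5000 bp, and 58.8% within 500 bp of a TSS. The replicates also hold longer ranked lists made before thresholding, and 673 of 732 (91.9%) lay in a ranked peak of both. That included 125 of the 159 in neither thresholded list.

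The strongest summits of 1 replicate alone lay in an unthresholded ranked peak of the other in 5 of 6 cases. The tara summit, 3509 bp upstream of this cell cycle regulator, had 393 in the combined list and 309 in replicate 1, against 76.6 in the ranked list of replicate 2. The same combined peak held another tara summit 348 bp away, which was in both replicates with 107 in replicate 1 and 257 in replicate 2. The Msr-110 and Treh summits followed, with 204 and 191 in replicate 1 against 111 and 52.4 in the ranked list of replicate 2. For replicate 2 alone, the summit nearest CG42808 had 126 against 113 in the ranked list of replicate 1, and another summit 226 bp away was in both, with 238 and 141. The summit at fng, a glycosyltransferase that modifies Notch, had 115 in replicate 2 and 80.8 in the ranked list of replicate 1. At TpnC47D, a troponin C gene, the summit had 66.1 in replicate 2 and lay in no ranked peak of replicate 1. The strongest summits in neither thresholded list lay near Ote, shd and Gr93a, with combined signals of 169, 166 and 163.

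Presence in both replicates fell steeply with signal in the combined list, which was itself made from these replicates. When the class was cut into 4 bins of equal size (183 summits each) from strongest to weakest, 96.2%, 79.8%, 19.1% and 4.92% had a thresholded peak in each replicate. Mean GC content at the summit was 28.5%, 28.5%, 29.8% and 35.9% in the same order, while that of the flanking windows stayed between 42.5% and 44.2%. Where a summit had a peak in both lists (366 summits), replicate 1 exceeded replicate 2 by a median factor of 1.33 (0.939 at the 10th and 1.94 at the 90th percentile) and was the higher at 311. The lists can differ in scale, so this ratio describes the lists.

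**Figure D2:**
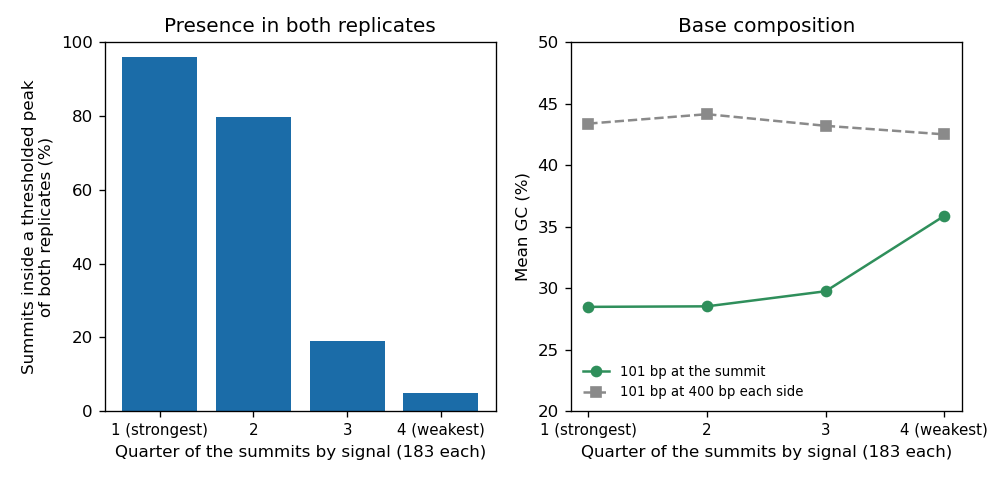
Intergenic summits near genes in 4 bins by signal, 183 summits each, strongest at the left. The left panel gives the percent of summits inside a thresholded peak of both replicates, which fell from 96.2% to 4.92%; the right panel gives mean GC in percent within 50 bp of the summit (circles) and for windows 400 bp to each side (squares), with the summit rising from 28.5% to 35.9%.

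Peak shape split the class into 2 kinds of summit. A width of exactly 560 bp was by far the most frequent in the list, at 1843 of 6476 peaks, and the next most frequent width was found at 35. In the class 209 of 732 peaks (28.6%) had that width, and in all 209 the summit lay within 1 bp of the peak's centre, against 12 of the other 523. Peaks of 560 bp had a median signal of 120.1, lay in both replicates at 10.05% and had a mean GC of 33.9% at the summit. The others had 203, 66.0% and 29.4%. In all, 168 summits of the class had a peak that overlapped another peak, and their nearest other summit was a median 204 bp away (upper quartile 218). They had a mean GC of 35.8%, against 29.1% for the 564 that overlapped none. Of the 24 summits with a signal under 20, 23 overlapped another peak, and their mean GC was 45.8%. How far the calling of peaks sets the position of these weak summits was not tested.

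Dad and chinmo show this at single genes. Dad, the inhibitory Smad of BMP signalling, was nearest to 4 summits in its upstream gap, at 4925, 4724, 1099 and 899 bp, with signals of 230.0, 56.2, 133 and 9.32. Only the summit at 4925 bp was in both thresholded replicate lists. GC content was 19.8% at that summit and 59.4% at the one of 9.32. At chinmo, a zinc-finger gene of neuronal temporal identity, the 4 summits had 397, 287, 124 and 10.6, and the strongest had the lowest GC content, 12.9%. The pair of strong chinmo summits shared 1 peak in each replicate list.

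Summits of the class were denser than those farther from a TSS. They numbered 51.4 per Mb of intergenic sequence at more than 500 and at most 5000 bp, against 25.2 per Mb beyond 5000 bp, 38.0 inside transcripts at the same distance and 153.8 within 500 bp of a TSS. Over the genome the rule covered 14.2 Mb, or 10.4% of bases. Within the class the density did not fall evenly with distance. It was 64.1 per Mb up to 1000 bp (exact Poisson 95% interval 54.1 to 75.4, for counting error only), 51.02 in the next 500 bp and 59.96 (49.2 to 72.4) at 1501 to 2000 bp. From there to 3500 bp it ran from 43.2 to 48.6. It was 37.7 (27.9 to 49.9) at 3501 to 4000 bp and 59.8 (46.8 to 75.3) at 4001 to 4500 bp, and these intervals overlap. The first bin, 3501 to 4000 bp and 4001 to 4500 bp held 44.8, 29.3 and 36.6 per Mb in the list of replicate 1, and 49.2, 29.3 and 44.9 in that of replicate 2. The median distance was 2093.5 bp (quartiles 1229.5 and 3414). Another nuclear summit lay within 1000 bp of 231 summits of the class (31.6%, 28.2 to 35.1), against 33.4% of all nuclear summits.

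**Figure D3:**
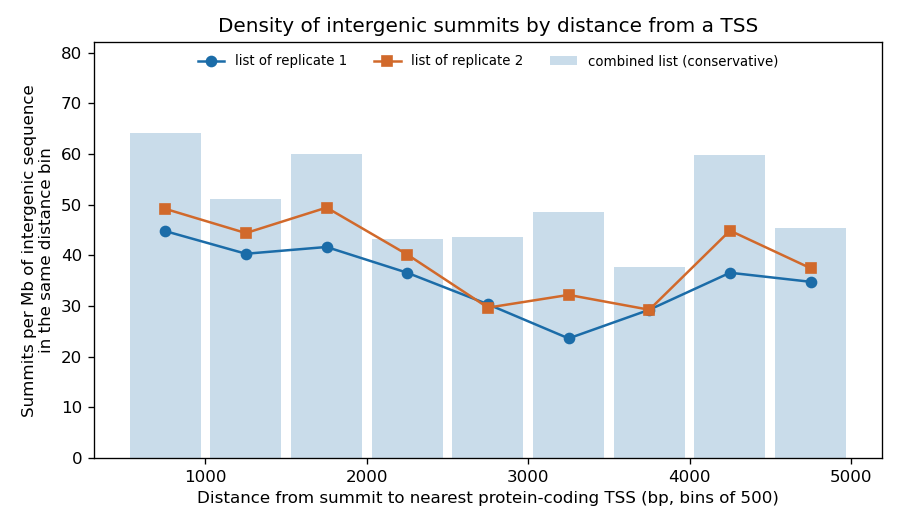
Intergenic summits per Mb of intergenic sequence in the same distance bin (vertical axis) by distance to the nearest protein-coding TSS in bins of 500 bp (horizontal axis), for the combined list (bars) and the lists of replicate 1 (circles) and replicate 2 (squares). Density is 64.1 per Mb in the first bin, 59.96 at 1501 to 2000 bp, 37.7 at 3501 to 4000 bp and 59.8 at 4001 to 4500 bp.

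Both limits of the distance rule cut through a continuous range. Just inside the lower limit, within 3 bp of it, lay the summits of CG3348, gce and CG10479, with signals of 195, 239 and 466. Just outside it, at or within 1 bp of the 500 bp mark, lay those of Syn, CG12402 and CG5973, with 106, 452 and 153. At the upper limit, summits at 4963 bp (CG44341), 4975 bp (Lip4) and 4996 bp (CG12290) had 139, 168 and 194, and those at 5001 bp (Tollo), 5015 bp (CG9300) and 5020 bp (Gr93b) had 178, 217 and 184.

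Summits lay upstream of the nearest TSS at 549 of 732 (75%, 71.7 to 78.1), where 69.4% of the bases of the class lie upstream. The share was 77.0% in replicate 1 and 75.1% in replicate 2 (mean 76.1% ± 1.31, SD, n = 2). Divergent gaps, in which both bordering genes are transcribed away from each other, held 281 summits (38.4%, 34.8 to 42.0) and 31.0% of the bases, or 63.6 summits per Mb. Tandem gaps held 358 at 47.9 per Mb and convergent gaps 92 at 39.7 per Mb. The 3′ ends of protein-coding genes had 69 summits within 500 bp (9.43%, 7.41 to 11.8) and 11.9% of the bases.

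Summits were more frequent next to genes whose own promoter had one. A promoter summit, any nuclear summit within 500 bp of a TSS, was present at 18.2% of all protein-coding genes and at 14.7% of the 6574 genes nearest to any base of the class. It was present at the nearest gene of 176 of the 732 summits (24.0%, 20.99 to 27.3), while 10.8% of the bases had such a nearest gene. In the replicate lists the share was 21.3% and 23.5% (mean 22.4% ± 1.56, SD, n = 2), against 9.80% and 9.89% of the bases, each counted with the promoter summits of its own list. In the stronger 50% of the list it was 15.8% against 6.66% of the bases, and with promoter summits within 250 bp of the TSS 12.6% against 7.01%, so both shares fell together and the ratio of summits to bases was 2.38 and 1.79 against 2.23. Up to 2000 bp the density was 138 per Mb beside genes with a promoter summit and 48.3 beside the others. Beyond 2000 bp it was 94.8 and 40.5. With the promoter summits of the combined list, these were 116 ± 7.12 and 35.8 ± 3.31 per Mb at the shorter distance, and 64.0 ± 1.68 and 30.1 ± 2.69 at the longer in the replicate lists (mean ± SD, n = 2), so the difference was larger than the spread of the replicates. Median signal was 169 at summits beside genes with a promoter summit and 173 at the others. Among summits in both replicates the order was the other way, with 155 and 139 in replicate 1 and 114 and 106 in replicate 2. Of 92 cytosolic ribosomal protein genes 62 had a promoter summit, and the density beside the list was 26.5 per Mb, against 51.4 for all genes.

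Starts of noncoding RNA genes held 74 summits of the class (10.1%, 8.02 to 12.5), against 4.46% of all nuclear summits and 5.44% of the bases. The share was 9.86% in replicate 1 and 12.6% in replicate 2 (mean 11.2% ± 1.94, SD, n = 2). These 74 summits marked 65 genes, and 63 of the 74 belonged to long noncoding RNAs, 4 to antisense RNAs, 4 to tRNAs, and 1 each to an snRNA, a snoRNA and the snoRNA host gene Uhg4. They lay upstream of the RNA's start at 44 and downstream at 29, at a median distance of 234 bp. Their median signal was 191 against 170 for the remaining 658 summits, and 60.8% against 48.8% lay in both replicates. In the bins by signal, 14.2% of the strongest were at such a start and 9.29%, 8.20% and 8.74% of the others.

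The strongest of these was the Psc summit, 162 bp upstream of lncRNA:CR44339 on the plus strand. Next came the l(3)neo38 summit (599.7), 329 bp upstream of lncRNA:CR45595, and the nej summit, 454 bp upstream of lncRNA:CR42657. The divergent gap of 6792 bp between NimC3 and hll held 2 of the 10 strongest. One had 519 and lay 270 bp upstream of lncRNA:CR45352. The other had 489, 239 in replicate 1 and 251 in replicate 2, and lay 12 bp upstream of lncRNA:CR31840. The Act5C summit, near the gene of a cytoplasmic actin, had 448 and lay 204 bp upstream of lncRNA:CR45668. The Uhg4 summit had 436 in the combined list, 246 in replicate 1 and 205 in replicate 2, and lay 82 bp upstream of that gene. The summit counted for snoRNA:Psi28S-2949 lay 200 bp farther, inside Uhg4, with a signal of 151.5. The rest of the 10 were nearest to CG5550, pnut (a septin) and Hex-A (a hexokinase), with 441, 419.6 and 417. One summit outside the 10, chosen after its values were seen, lay 165 bp upstream of lncRNA:flam, the flamenco locus that makes piRNAs against transposons, with 266 in the combined list, 140.4 in replicate 1 and 125.0 in replicate 2.

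Transposable elements held almost none of the class. Annotated elements covered 6.07% of the bases and held 2 summits (0.273%, 0.0331 to 0.983), against 0.232% of all nuclear summits. The 2 lay in an INE-1 element near ed, with a signal of 364 and in both replicates, and in an HB element near del, with 195 and in replicate 2 alone. Multi-mapping reads can be lost at such repeats, and how the authors treated them is not given in the sources used here. Soft-masking also marks simple repeats and low-complexity sequence. The summit base was soft-masked at 203 of 732 (27.7%, 24.5 to 31.1), against 27.1% of all nuclear summits and 20.3% of the bases, with a mean GC of 24.6% at the masked summits and 33.0% at the rest. The masked share was 29.7% ± 2.37 in the replicate lists (mean ± SD, n = 2).

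**Figure D4:**
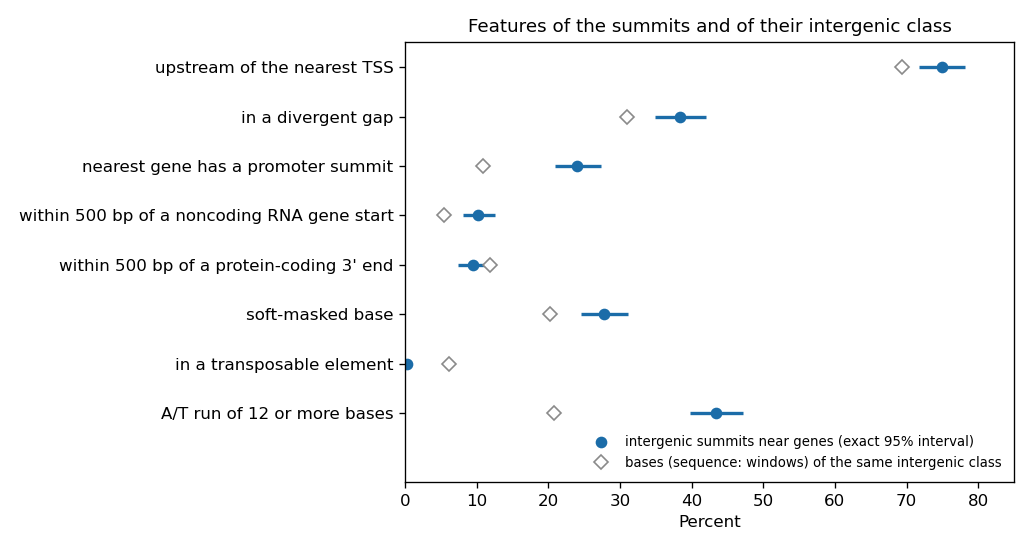
Percent of the 732 intergenic summits near genes with each feature (filled circles; lines are exact 95% binomial intervals, for counting error only) beside the percent of the bases of the same intergenic class, or of its windows for the A/T run (open diamonds). Summits and bases are far apart for A/T runs (43.4% against 20.9%), a nearest gene with a promoter summit (24.0% against 10.8%) and transposable elements (0.273% against 6.07%).

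The summits sat on short stretches poor in G and C. Mean GC was 30.7% within 50 bp of the summit (SD 9.80 over 732 summits), 43.3% in windows of equal length 400 bp to each side and 40.6% over all such windows of the class. In the replicate lists it was 30.2% ± 1.13 at the summit and 43.4% in the flanks (n = 2). GC was lower at the summit than in both flanks at 516 of 732 (70.5%). A run of at least 12 bases of only A and T was found at 318 summits (43.4%, 39.8 to 47.1), against 42.6% of all nuclear summits, 18.0% and 17.6% of the flanks, and 20.9% of the windows of the class. The dip was common to every position class, with means from 30.5% in intergenic summits over 5000 bp away to 32.5% within 500 bp of a TSS, so it does not set this class apart.

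**Figure D5:**
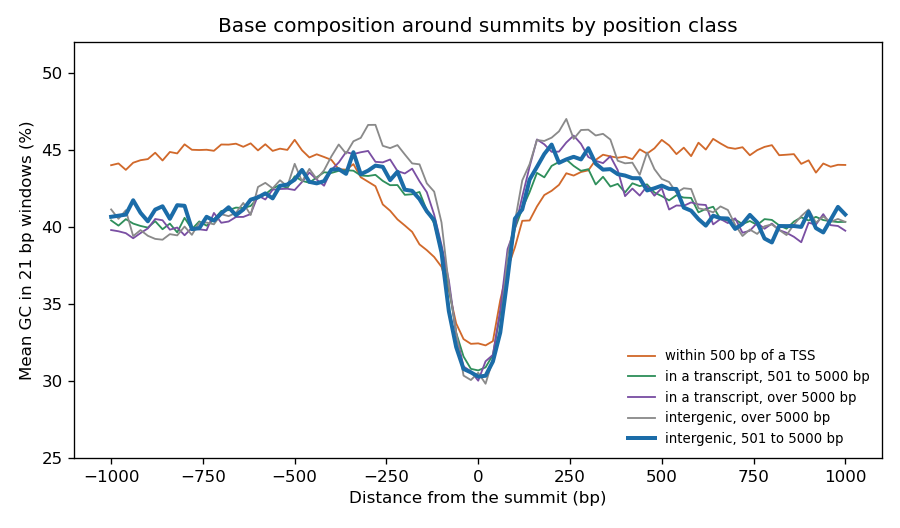
Mean GC in percent in windows of 21 bp (vertical axis) by distance from the summit in bp (horizontal axis), for intergenic summits at more than 500 and at most 5000 bp from a TSS (thick line) and the other position classes (thin lines). In the thick line GC is 30.3% at the summit. At 200 bp it is 45.4% on the right, its highest value, and 42.4% on the left. The mean of both sides at 1000 bp is 40.7%. The other classes dip at the same place.

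Several short words differed in frequency between summits and flanks. Over 18 motifs searched on both strands, TATAAA, the TATA box, was found at 28.1% of summits (24.9 to 31.6), against 11.3% of flanks, 13.2% of the windows of the class and 27.7% of all nuclear summits. AGATAA, the element of GATA factors, was found at 9.43% against 5.67% of flanks, and TATATATA at 3.96% against 1.503%. Over all nuclear summits these 2 words were at 8.66% and 3.40%. The run AAAAAAAA was at 7.38% against 7.04%, with an interval (5.59 to 9.52) that holds the flank share. Of words with more G and C, some were less frequent at the summit than in the flanks and others more. CAGCTG, an E-box of basic helix-loop-helix proteins, was at 1.23% against 3.89%, TGAGTG, the Zeste element, at 2.87% against 6.63%, and CACACACA at 0.956% against 3.89%. GAGAGAG, the GAGA factor element, was at 0.956% (0.385 to 1.96) against 2.66% of flanks, but it was in 1.08% of the windows of the class, inside that interval. The Motif 1 core was at 0.410% (0.0846 to 1.19) against 0.0683% of flanks, a share that rests on 1 window. Its interval excludes the flank share but holds the 0.131% of the windows of the class. The CTCF core was at 1.64% (0.850 to 2.85) against 0.683% of flanks and 0.704% of the windows, and its interval excludes both. Over all nuclear summits the shares were 0.695% for the Motif 1 core and 0.942% for the CTCF core. The DRE, TATCGATA, was at 4 summits (0.546%, 0.149 to 1.39) and in 0 flanking windows of 1464. Its interval holds the 0.211% of the windows of the class and the 1.20% of all nuclear summits. The BEAF core CGATA, which overlaps the DRE, was at 8.88% against 9.22%. All 20 of the words of 8 bases that exceeded the flanks most held no G or C, led by AAATATAT (10.5% against 3.14%). The part that base composition alone has in these matches was not tested, and a match is not a binding site.

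The 732 summits were nearest to 553 genes, 3.96% of all protein-coding genes, in 665 regions without overlap. Of these genes 422 had 1 summit, 92 had 2, 32 had 3, 5 had 4 and 2 had 5. The genes with 5 were CG7557 and Gr93a, a gustatory receptor gene. Those with 4 were chinmo, Dad, CG4218, CG42693 and CG43354. At CG4218 the signals were 431, 278, 183 and 154, and at CG43354 381, 335, 247 and 14.4. At CG42693 they were 208, 130.1, 122 and 84.9, the last 154 bp from lncRNA:CR34046 in the gap shared with ttk. At CG7557 they ran from 89.2 to 183 and only 1 of 5 lay in both replicates. By arm, density was highest on 3L, 67.2 per Mb (195 summits), and lowest on the 4th chromosome, 35.8 (4 summits), and X, 39.5 (87 summits). In both replicate lists 3L was again the highest, with 48.6 and 50.3 per Mb in replicates 1 and 2. In the same order the 4th chromosome had 17.9 and 26.8, X 31.8 and 30.9, and 3R 31.1 and 36.6. Thus X lay below 3R in replicate 2 alone. The Y had 0 summits in 0.0930 Mb.

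Genes of developmental signalling and of the mesoderm were among the nearest genes. Of 35 genes of the Notch, EGFR, Wnt, Hedgehog and BMP pathways, 7 (20%, 8.44 to 36.9) were nearest to 14 summits, against 3.96% of all protein-coding genes. Their density was 212 per Mb of their sequence against 51.4 for all genes. The strongest were at aop, the ETS repressor downstream of EGFR, with 386 and 291 at 1498 and 4168 bp upstream, and in replicate lists 167 and 152 for replicate 1 and 234 and 129 for replicate 2. The pnt summit, at the ETS activator of the same pathway, had 273, 180.2 in replicate 1 and 107 in replicate 2. Dad followed with 230.0. Only these 4 of the 14 summits lay in both replicates, and Dad and Wnt4 each gave summits that shared or overlapped a peak. Of 30 dorsoventral, mesoderm and muscle regulators, 7 (23.3%, 9.93 to 42.3) had 8 summits, all upstream, at 77.7 per Mb against 51.4 for all genes. The genes of this list have 3.43 kb of the class per gene against 1.02 kb over all genes, and the share of genes is not corrected for it. The nearest genes included Doc2, a T-box gene (324), dl, the Dorsal morphogen (247), srp, a GATA factor of blood and endoderm (244 and 176), and zfh1 (218). With dpp, the BMP ligand (217), 5 of the 8 summits lay in both replicates. The weaker srp summit lay in replicate 2 alone, and those at tey (120.3) and tup (117) in neither.

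Segmentation, neural and hormone response genes had shares whose intervals hold the 3.96% of all genes. Of 35 segmentation and homeotic regulators 4 (11.4%, 3.20 to 26.7) were nearest to 5 summits, 30.9 per Mb against 51.4 for all genes. These genes have long stretches of intergenic sequence, 4.63 kb of the class per gene against 1.02 kb over all genes. The 4 genes were slp2 (523 and 184), slp1 (368), bcd, the anterior morphogen (217), and wg, a Wnt ligand (144). Of 26 neurogenesis and glial regulators, D, a Sox gene, and nerfin-1 had 1 summit each (7.69%, 0.946 to 25.1; 28.3 per Mb), with 175 and 123, both in replicate 1 alone. In the less strict list 4 genes of this group (15.4%, 4.36 to 34.9) had 6 summits, 85.02 per Mb. All genes had 4.52% and 58.6 per Mb in that list, and the interval holds the 4.52%. Of 23 ecdysone response and nuclear receptor genes, Hr51, Hr38 and Eip78C (13.0%, 2.78 to 33.6) had 4 summits of 124 to 179, 105 per Mb, with 0 of 4 in both replicates. Of 23 heat shock and chaperone genes 1 (4.35%, 0.110 to 21.9) was nearest to a summit, near the 3.96% of all genes. It was stv, a BAG co-chaperone (403, with 244 and 167 in the replicates). Of 25 immune genes 1 (4%, 0.101 to 20.4) was, PGRP-SA, which senses Gram-positive bacteria (399, with 247 and 151 in the replicates). In the less strict list 3 heat shock and chaperone genes (13.0%, 2.78 to 33.6) and 2 immune genes (8%, 0.984 to 26.0) were nearest to a summit. Both intervals hold the 4.52% of all genes in that list.

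In 4 further gene families few genes had a promoter summit. The share of genes nearest to a summit of the class was 3.35% for chemoreceptors and 4.92% for cuticle proteins. It was 3.53% for cytochrome P450 genes and 3.70% for Dpr, DIP and beat adhesion genes, and each interval holds the 3.96% of all genes. Their densities ran from 14.3 to 35.3 per Mb, against 51.4 for all genes. These densities rest on 2 to 12 summits per list and are given without an interval. Promoter summits were at 1, 3, 5 and 3 genes in the same order, against 18.2% of all genes. Of 179 chemoreceptor genes 6 were nearest to 12 summits. In this family 9 of the 12 summits lay along 22.1 kb of 3R at Gr93a, Gr93b and Gr93d, with signals of 90.9 to 336, and 5 of the 9 were in both replicates. The others were at Gr89a (365), Ir67b (209) and Or33a (153). Of 122 cuticle protein genes 6 had 1 summit each, the strongest at Cpr65Eb (293), Cpr51A (280.0), Cpr76Ba (274) and Cpr67Fb (244). Of 85 cytochrome P450 genes, Cyp6v1 (275), Cyp28c1 (230) and Cyp4s3 (153) had 1 each, all in both replicates. Of 54 Dpr, DIP and beat adhesion genes, side-IV (285) and dpr20 (193) had 1 each.

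None of 23 insulator and chromatin architecture genes was nearest to a summit of the class (0 to 14.8%), and the interval holds the 3.96% of all genes. These genes have 0.535 kb of the class per gene, against 1.02 kb over all genes. A promoter summit was present at 10 of these 23 genes, against 18.2% of all protein-coding genes. None of the 115 replication-dependent histone genes was nearest to a summit of the class (0 to 3.16%). In the less strict list 1 of them was (0.870%, 0.0220 to 4.75), an interval that holds the 4.52% of all genes in that list. These lists differ in how much intergenic sequence lies beside their genes, from 0.380 kb per gene for the histones to 4.63 kb for the segmentation genes, and the counts of genes are not corrected for it. The intervals count genes as independent, which neighbours in a cluster are not.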

How the data were processed

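The lists are the authors' deposited peaks on dm6. Per the labels, they come from 2 biological replicates of 1 group, and replicate numbers were taken from the labels. Per the readme deposited with the samples, peaks were called per replicate and on both replicates together. The names of the aligner and peak caller are not given in the sources. Peak signal is the authors' deposited value on an unstated scale. The deposited score (scaled irreproducible discovery rate, IDR, at most 1000) and the −log10 q-values deposited by the authors were not used in any result. Summits come from the deposited offset. Depth is unknown, so intervals (exact binomial, Clopper-Pearson) cover counting error in summits or genes only.

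Genes are from Ensembl release 115, sequence and soft-masking from RefSeq. Noncoding RNA genes were ncRNA, rRNA, snRNA, snoRNA and tRNA biotypes. Tools were pandas 2.3.3 and numpy 2.4.6 in Python 3.11.15, with scipy 1.17.1 for intervals and matplotlib 3.10.9 for plots. Position rules were tested on simulated data. With 1 group no test between conditions was made. Replicates are given by the labels as biological, and summits are not replicates.

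The class, the motifs and the gene lists were chosen with earlier results of these data known. Named were the 20 strongest summits in both replicates, genes nearest to at least 4 summits, the 10 strongest at noncoding starts, the 3 strongest of each other replicate status, up to 4 per gene list and the 3 nearest each limit. Alternatives covered the list used, merged peaks, distance limits, windows, masking and single replicates. Some results for single genes are not reported here.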

Additional observations from a re-analysis of the deposited data

How the results depend on the processing

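Of 74 values under alternatives, 36 moved by less than the SD of the replicate lists and 38 by more. For presence in both replicates the bound was its exact interval, and for counts it was 1.5 times. For median signal the SD (25.7) includes the difference in scale between the lists, so a smaller move does not show that this median is stable. With the less strict list, 44.1% lay in both replicates and 30.5% had a nearest gene with a promoter summit. With overlapping peaks merged, the class was 11.5% of summits, 20.3% had such a gene and GC was 29.0%. With only distances over 1000 bp these were 9.05% for the class, 69.6% upstream and 21.7% for such a gene. In the stronger 50% of the list by signal, the class was 9.94%, 92.2% lay in both replicates, median signal was 257, 12.4% lay at noncoding RNA starts, 15.8% had a nearest gene with a promoter summit and GC was 28.5%. Without masked summits the last 2 were 18.5% and 33.0%. The class was 12.5% with TSSs and transcripts of noncoding RNA genes added, and 16.2% with a limit of 10000 bp. By any overlap of 1 bp, 56.6% lay in both replicates. At noncoding starts were 5.601% within 250 bp and 17.1% within 1000 bp. Promoter summits within 250 bp gave 12.6%. GC was 33.0% within 100 bp of the summit.

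Chosen after seeing the data, leaving out peaks of 560 bp gave 66.0% in both replicates, a median signal of 203, 18.2% with a promoter summit at the nearest gene, 31.2% masked and GC of 29.4%. Counting starts of pseudogenes and transposable elements too gave 12.2%. Causes were not tested beyond what each alternative changes by construction.

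With 1 replicate list alone, the ranges were 10.4% to 10.6% for the class, 84.0 to 120.3 for median signal (lists differ in scale), 9.86% to 12.6% at noncoding starts, 75.1% to 77.0% upstream, 21.3% to 23.5% with a promoter summit at the nearest gene, 28.0% to 31.3% masked and 29.4% to 31.0% GC. Of 18 motifs, 13 had an interval that excluded the flank share, 13 within 100 bp and 9 without masked summits. No paired analysis was possible because the series has 1 group. Unknown depth limits all statements on absence.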
